A study of Mus musculus with 6 samples.

Results

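The immunoglobulin heavy variable segments (Ighv) were taken as every row of the deposited mouse gene table whose symbol begins with Ighv, which gave 113 of 37447 genes. They were read in 6 libraries of RNA from microglia, the macrophages that live in the brain and optic nerve, flow sorted from the optic nerves of C57BL/6 mice aged 3 months. The 2 FM libraries came from mice labelled Nf1 flox/mut (FM 1 male, FM 2 female), so that Nf1, whose loss underlies neurofibromatosis type 1, had a floxed and a mutant allele. The 4 FMC libraries came from mice labelled Nf1 flox/mut; GFAP-Cre (FMC 1 and FMC 4 female, FMC 2 and FMC 3 male). All mice in both groups therefore carried the floxed and mutant alleles, and the groups differed by a Cre recombinase whose GFAP promoter drives it in astroglial cells, not in microglia. The study set FMC against FM to find genes that differ in microglia associated with optic glioma. The labels call the libraries biological replicates without saying how many mice each held, so the spread between libraries may be partly technical.

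An antibody heavy chain is encoded by a variable segment joined by DNA rearrangement to a diversity and a joining segment, followed by a constant gene. Each B cell, and the plasma cell it gives rise to, normally expresses 1 productive heavy chain joined to 1 variable segment, paired with a kappa or lambda light chain. Rearranged segments are transcribed at high levels in plasma cells, whereas microglia are not known to rearrange the locus. In the table the rows lie on chromosome 12 between 114812452 and 117238672 (mm9), and the mu constant gene Ighm lies at 114659077 to 114660941, so low coordinates are the end nearest the constant genes.

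The highest segment of each library was one of 5 members of family 1, the largest family. The last bases of their annotated transcripts, which hold nearly all of the variable exon, are printed 5′ to 3′ because they show how alike the dominant segments are. Sequences are GENCODE M21 transcripts (GRCm38, minus strand of chromosome 12) matched by symbol, and capitals mark the 65 positions at which the 5 were not all identical.
Ighv1-80: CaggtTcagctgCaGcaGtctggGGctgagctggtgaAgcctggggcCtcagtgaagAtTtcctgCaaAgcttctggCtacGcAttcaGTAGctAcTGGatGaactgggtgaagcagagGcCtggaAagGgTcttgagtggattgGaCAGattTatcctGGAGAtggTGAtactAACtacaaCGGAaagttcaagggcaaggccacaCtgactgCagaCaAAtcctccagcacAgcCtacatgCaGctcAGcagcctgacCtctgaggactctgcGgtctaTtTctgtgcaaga
Ighv1-26: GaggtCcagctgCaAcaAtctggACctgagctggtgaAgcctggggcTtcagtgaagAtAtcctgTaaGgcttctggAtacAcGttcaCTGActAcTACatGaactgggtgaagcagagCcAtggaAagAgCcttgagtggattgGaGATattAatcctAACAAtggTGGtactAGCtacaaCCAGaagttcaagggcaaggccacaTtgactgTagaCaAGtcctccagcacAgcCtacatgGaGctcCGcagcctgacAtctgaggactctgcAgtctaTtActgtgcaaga
Ighv1-82: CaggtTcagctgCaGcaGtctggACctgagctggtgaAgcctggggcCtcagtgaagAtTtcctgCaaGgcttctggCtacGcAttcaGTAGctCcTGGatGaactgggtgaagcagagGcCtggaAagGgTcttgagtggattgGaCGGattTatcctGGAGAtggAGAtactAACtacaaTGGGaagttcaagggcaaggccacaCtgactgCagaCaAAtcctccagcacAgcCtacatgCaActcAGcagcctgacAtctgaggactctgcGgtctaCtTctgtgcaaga
Ighv1-76: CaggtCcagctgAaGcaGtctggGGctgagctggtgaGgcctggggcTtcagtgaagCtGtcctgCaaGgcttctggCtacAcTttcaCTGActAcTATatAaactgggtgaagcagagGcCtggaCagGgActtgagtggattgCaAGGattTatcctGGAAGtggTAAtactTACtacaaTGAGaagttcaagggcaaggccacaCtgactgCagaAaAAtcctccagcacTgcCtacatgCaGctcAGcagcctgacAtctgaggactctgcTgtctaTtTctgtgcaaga
Ighv1-85: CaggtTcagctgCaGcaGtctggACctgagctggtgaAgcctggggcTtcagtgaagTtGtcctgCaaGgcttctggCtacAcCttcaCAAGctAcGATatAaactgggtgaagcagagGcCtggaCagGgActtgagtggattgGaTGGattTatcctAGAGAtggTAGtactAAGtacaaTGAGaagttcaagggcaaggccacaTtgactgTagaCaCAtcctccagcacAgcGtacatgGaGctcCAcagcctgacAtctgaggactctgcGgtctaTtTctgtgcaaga
Ighv1-80 and Ighv1-82 differed at 11 of these bases (96.3% identity), whereas Ighv1-26 was 85.4% to 87.1% identical to the rest. Reads from segments this close may be divided between them in ways that the table does not record. Over all 113 rows, a median of 78.4% of the 50-base windows in this stretch occurred in no other Ighv transcript of the annotation, and 3 rows (Ighv1-72, Ighv1-71 and Ighv1-62-2) had no such window. The last 2 of those were listed at 0 in every library. Ighv1-72 was at 5.11 FPKM or more in every library.

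Values are FPKM, a fragment number relative to the length of the transcript and to the size of the library, so levels of different segments are compared per length and relative to all other RNA of a library. Of the 113 rows, 11 were listed at 0 throughout, among them Ighv7-2, Ighv11-1 and Ighv16-1. The number of segments at 1 FPKM or more was 75 in FM 1 and 69 in FM 2. It was 81, 77, 63 and 52 in FMC 1 to FMC 4. The groups overlapped, with the FM libraries inside the FMC range, and the means were 72 ± 4.24 (SD, n = 2) in FM and 68.3 ± 13.3 (SD, n = 4) in FMC. At 100 FPKM or more there were 14 and 16 segments in FM and 36, 12, 15 and 8 in FMC. FMC 1 thus held the most detected and the most high segments, and FMC 4 the fewest of both. Few segments were just above 0: between 1 and 8 per library lay between 0 and 1 FPKM.

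Detection at 1 FPKM is not specific to immunoglobulin genes in these libraries. Of 1249 olfactory receptor genes, which optic nerve cells are not known to use, 33.5% to 64.8% reached 1 FPKM, against 46.0% to 71.7% of Ighv rows. By library the olfactory share was 59.2% and 61.4% in FM and 34.7%, 64.8%, 33.5% and 53.6% in FMC. The Ighv share was 66.4% and 61.1% in FM and 71.7%, 68.1%, 55.8% and 46.0% in FMC. It was thus below the olfactory share in FM 2 and FMC 4 and above it in the other libraries. The levels were further apart, with a mean per row of 2.41 to 9.58 FPKM for olfactory receptor genes and 35.8 to 243 FPKM for Ighv. The part of such background in the number of detected segments was not tested.

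**Figure D1:**
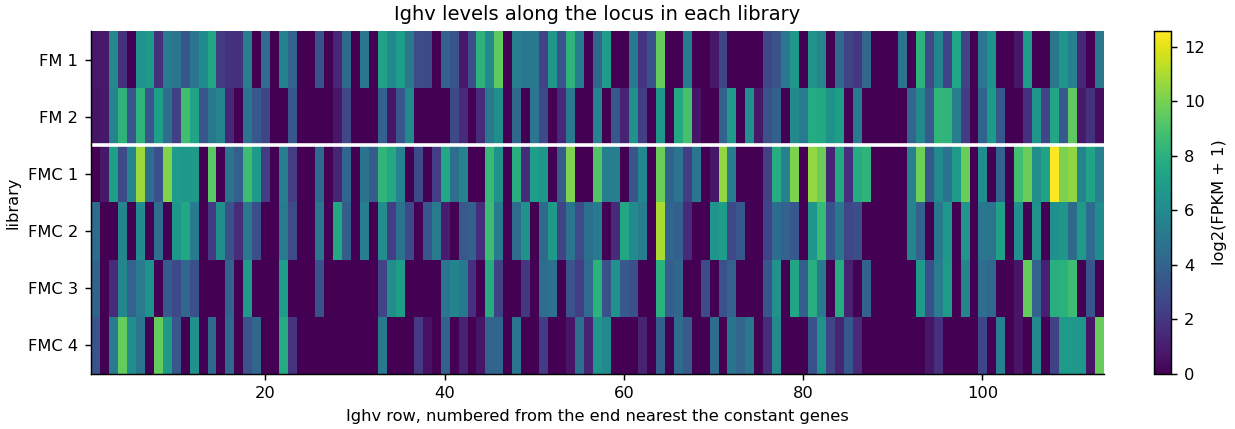
Level of each of the 113 Ighv rows (x axis, numbered from the end nearest the constant genes) in each of the 6 libraries (y axis, FM above the white line), coloured by log2(FPKM + 1). High segments lie all along the locus and differ from library to library, and the highest value is Ighv1-80 in FMC 1 at 6061 FPKM.

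The segments summed to 5163 FPKM in FM 1 and 5623 in FM 2. In FMC the sums were 27487, 6034, 4679 and 4044 FPKM in FMC 1 to FMC 4. FMC 1 stood far above the other five libraries, which lay between 4044 and 6034, and the groups overlapped. As a share of the summed FPKM of all genes, Ighv made up 1.23% and 0.924% in FM and 4.07%, 1.34%, 0.946% and 0.627% in FMC. The mean was 5393 ± 325 FPKM (SD, n = 2) in FM and 10561 ± 11315 (SD, n = 4) in FMC. Without FMC 1 the FMC mean was 4919 FPKM, below that of FM, so the direction of the difference rests on 1 library. In RNA from sorted cell pools, fewer cells of a type and less RNA per cell cannot be told apart.

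A single segment took a larger share of the heavy variable total in every FMC library than in either FM library. In FM 1 the highest was Ighv1-26 at 785 FPKM, 15.2% of the total. In FM 2 it was Ighv1-82 at 709 FPKM, 12.6% of the total. In FMC 1 it was Ighv1-80 at 6061 FPKM, a share of 22.0%. FMC 2 was led by Ighv1-26 at 1997 FPKM, with the largest share of any library, 33.1%, and 5.03 times the level of its second segment. FMC 3 was led by Ighv1-76 at 775 FPKM (16.6%) and FMC 4 by Ighv1-85 at 813 FPKM (20.1%). The mean share was 13.9% ± 1.84 (SD, n = 2) in FM and 22.9% ± 7.13 (SD, n = 4) in FMC, and no test was made of such a score over the members. The nearest libraries, FM 1 and FMC 3, were 15.2% and 16.6%. The difference in means, 9.05 percentage points, was 5.67 without FMC 2.

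How far the groups separated depended on how many segments were summed. The 3 highest held 35.0% and 28.7% of the total in FM and 33.4%, 45.8%, 31.3% and 58.4% in FMC, so the groups overlapped. The 10 highest held 60.5% and 60.6% in FM and 63.2%, 63.2%, 65.3% and 78.7% in FMC, with no overlap. The number of segments needed to reach 50% of the total was 7 and 8 in FM and 7, 5, 7 and 3 in FMC. The effective number of segments, the inverse of the summed squared shares, was 16.3 and 20.0 in FM and 13.4, 7.95, 16.5 and 8.16 in FMC. FMC 3 lay inside the FM range on this measure, while FMC 2 and FMC 4 had the lowest values. The title dates place FM 1 and FMC 2 one day apart, and likewise FM 2 and FMC 3. Within the first of these pairs the highest segment took 15.2% in FM and 33.1% in FMC, and within the second 12.6% and 16.6%.

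**Figure D2:**
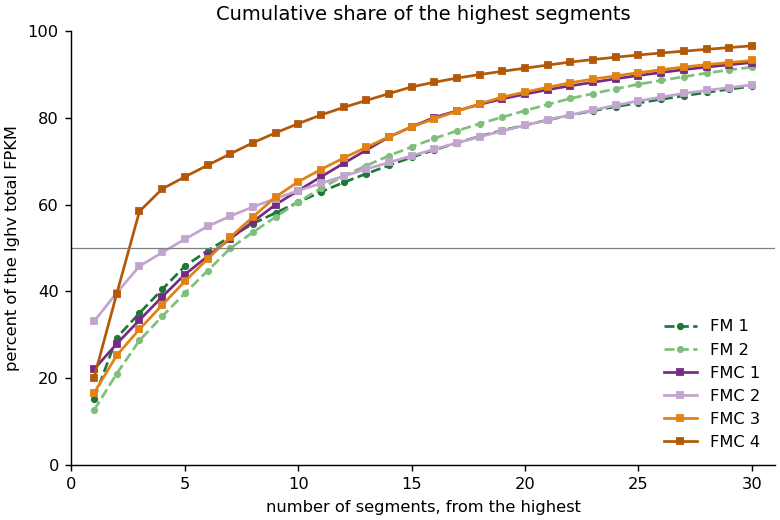
Cumulative percent of the Ighv total FPKM (y axis) held by the highest segments of each library (x axis, number of segments), with FM dashed and FMC solid; the grey line is 50%. FMC 4 reaches 58.4% with 3 segments and FMC 2 starts highest at 33.1%, while FMC 1 and FMC 3 need 7 segments to reach 50%, against 7 and 8 in FM.

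Which segments were high varied between libraries in both groups. No segment was among the 10 highest of all 6 libraries. Ighv1-82 was among them in 4 libraries, and Ighv1-26, Ighv1-54, Ighv1-55 and Ighv1-81 in 3 each. A further 13 segments were among the 10 highest of 2 libraries and 18 of 1 library. The 2 FM libraries shared none of their 10 highest, while pairs of FMC libraries shared 1 to 5 and FM-FMC pairs 0 to 3. Across the 113 rows, Pearson's r of log2(FPKM + 1) was 0.361 between the FM libraries, 0.219 to 0.585 among FMC libraries and 0.160 to 0.486 for pairs of 1 FM and 1 FMC library. These r describe rows that share a library and a locus and are not independent.

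The levels of the 5 leading segments varied widely between libraries. Ighv1-26 was at 785 and 98.9 FPKM in FM, against 844, 1997, 257 and 12.4 in FMC. Ighv1-82 was at 43.1 and 709 FPKM in FM, against 1413, 19.6, 406 and 106 in FMC. Ighv1-80, its close relative in the sequences above, was at 30.1 and 174 FPKM in FM, against 6061, 78.2, 240 and 4.58 in FMC. For all 3 the groups overlapped, and the highest and the lowest value were both in FMC libraries.

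Ighv1-76 was listed at 0 in FMC 2 and FMC 4 yet was at 827 FPKM in FMC 1 and 775 in FMC 3, with 129 and 2.37 in FM. Ighv1-85, the last row of the locus, was at 813 FPKM in FMC 4 and at 0 to 67.6 in the other five. On the log2(FPKM + 1) scale, the FMC minus FM difference was -0.02 for Ighv1-26, 0.10 for Ighv1-82, 1.11 for Ighv1-80, 0.44 for Ighv1-76 and 2.62 for Ighv1-85. The standard errors were 1.60 to 3.03 and none passed the limma test. The sign of the first 4 differences turned when single libraries were left out.

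There were 22 segments at 1 FPKM or more in all 6 libraries and 24 in exactly 5, while 13 reached that level in none. Among those found throughout, Ighv8-5 stayed between 2.17 and 9.14 FPKM. Ighv1-72 ran from 5.11 to 68.5 FPKM. Ighv6-6 was at 729 and 76.4 FPKM in FM, against 87.2, 36.7, 4.40 and 16.2 in FMC, so that only FMC 1 exceeded an FM library.

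Family 1, with 56 of the 113 rows (49.6%), held 51.6% and 63.0% of the total in FM and 73.3%, 71.4%, 70.4% and 43.4% in FMC. It was thus above its share of rows in every library except FMC 4, and the groups overlapped through that library. Family 5, with 9 rows, held 3.72% and 16.2% in FM and 8.36%, 5.19%, 4.77% and 41.9% in FMC. Family 2 (10 rows) held 3.15% to 11.0%, family 8 (8 rows) 0.107% to 6.71% and family 3 (6 rows) 0.392% to 1.31%.

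The family 5 share of FMC 4 came mainly from 2 segments, Ighv5-4 at 783 FPKM and Ighv5-9 at 767 FPKM. Their sequences are shown because the 2 levels were nearly equal there. Capitals mark the 17 bases at which they differ (94.2% identity), in the same annotation and orientation.
Ighv5-4: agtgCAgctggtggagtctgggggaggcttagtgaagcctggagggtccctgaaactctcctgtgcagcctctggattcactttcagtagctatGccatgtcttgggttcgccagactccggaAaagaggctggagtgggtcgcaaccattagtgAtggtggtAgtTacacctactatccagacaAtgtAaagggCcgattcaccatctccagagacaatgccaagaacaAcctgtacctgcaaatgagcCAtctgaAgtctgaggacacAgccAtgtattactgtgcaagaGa
Ighv5-9: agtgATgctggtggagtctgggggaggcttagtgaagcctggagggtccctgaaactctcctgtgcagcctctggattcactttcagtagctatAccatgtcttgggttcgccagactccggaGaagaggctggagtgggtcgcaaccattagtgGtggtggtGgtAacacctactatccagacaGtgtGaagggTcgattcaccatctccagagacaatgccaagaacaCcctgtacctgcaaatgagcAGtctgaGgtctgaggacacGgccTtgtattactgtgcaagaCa
Their levels were also nearly equal in FM 1 (2.41 and 2.37 FPKM) and FMC 1 (6.67 and 7.25). They were unequal in FM 2 (291 and 133 FPKM), in FMC 2 (52.4 and 21.6) and in FMC 3, where Ighv5-4 was at 53.7 and Ighv5-9 was listed at 0. Whether reads of one were assigned to the other was not tested. Pairs were then taken among the rows above 0 in at least 1 library. Over the 11 such pairs at least 97% identical in sequence, the median absolute difference in log2(FPKM + 1) was 2.24. It was 2.19 for the 34 pairs from 95% to 97%, 3.13 for the 202 from 90% to 95%, which hold Ighv5-4 and Ighv5-9, 3.04 for the 1154 from 80% to 90% and 2.82 for the 3750 pairs under 80%.

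By position, the 29 rows nearest the constant genes (Ighv2-1 to Ighv14-3) held 53.6% of the total in FMC 4 and 10.9% to 27.6% in the other libraries. The 28 most distant rows (Ighv1-59 to Ighv1-85) held 19.5% and 34.1% in FM and 46.9%, 17.6%, 44.6% and 31.1% in FMC. The 10 rows annotated as pseudogenes held 0.747% and 8.63% in FM and 0.320%, 5.79%, 1.02% and 4.15% in FMC. In FM 2 the pseudogene Ighv1-33 alone was at 474 FPKM.

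**Figure D3:**
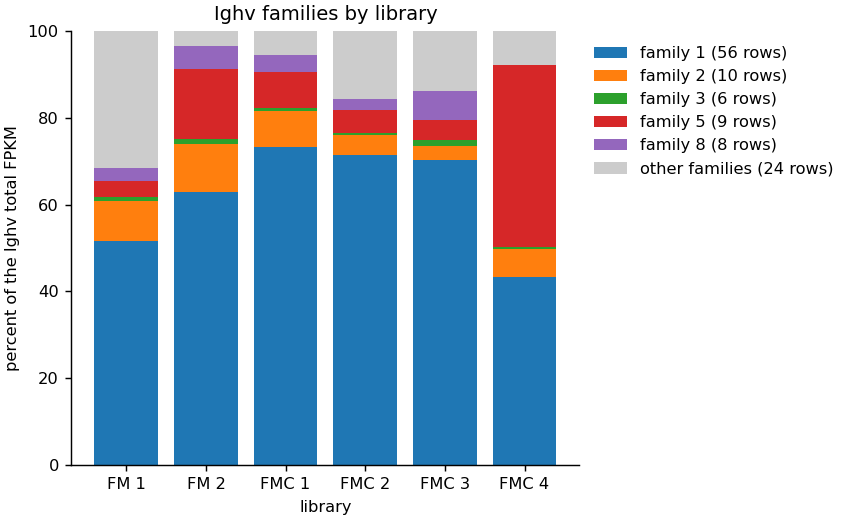
Percent of the Ighv total FPKM (y axis) held by each family with at least 5 rows, and by the others together (grey), in each library (x axis). Family 1 is the largest in all 6 libraries, from 43.4% to 73.3%, and family 5 reaches 41.9% in FMC 4.

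No Ighv segment differed between FMC and FM past the threshold. The test was limma with Benjamini-Hochberg adjustment over the 18208 genes that reached 1 FPKM in 2 or more libraries, of which 95 were Ighv and 5 (0.0275%) passed an adjusted p of 0.05. The smallest adjusted p of an Ighv segment was 0.234, for Ighv2-9-1. At an unadjusted p under 0.05, 6 segments were higher in FMC (6.32% of 95, against 1.14% of all genes) and 8 lower (8.42%, against 4.20%). The median difference of the 95 was 0.10 (log2) against -0.12 for all genes tested. The median standard error was 1.62 for these segments and 0.757 for all genes tested.

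In 3 segments all FMC libraries were above both FM libraries (3.16% of 95, against 4.34% of all genes). Ighv5-15 was at 2.54 and 1.53 FPKM in FM, against 27.2, 7.72, 14.9 and 17.2 in FMC. Its log2 difference was 2.45 ± 0.68 (SE), with an adjusted limma p of 0.600. Ighv1-50 was at 8.39 and 14.2 FPKM in FM, against 225, 20.9, 81.8 and 64.6 in FMC. It is a family 1 segment of which 30.2% of the 50-base windows are its own. Ighv1-81 was at 96.7 and 10.8 FPKM in FM, against 1080, 97.7, 260 and 113 in FMC. FM 1 and FMC 2 were nearly equal there. The share of such segments was no higher than that of all genes.

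In 6 segments all FMC libraries were below both FM libraries (6.32% of 95, against 8.22% of all genes), again no higher a share than among all genes. Ighv2-9-1 was at 69.1 and 9.30 FPKM in FM and was listed at 0 in all 4 FMC libraries. Ighv3-3 was at 30.2 and 60.5 FPKM in FM, against 5.85 in FMC 2, and was listed at 0 in the other three FMC libraries. Ighv1-33 was at 36.2 and 474 FPKM in FM, against 4.03, 1.95, 0 and 10.3 in FMC, a difference of -5.21 ± 1.18 (SE, log2) with an adjusted limma p of 0.424. That difference was -3.37 without FM 2 and -7.04 without FM 1.

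Ighv7-1 was at 21.8 and 5.23 FPKM in FM, against 3.57 in FMC 1, and was listed at 0 in the others. Ighv8-13 was at 87.3 and 115 FPKM in FM, against 28.0 in FMC 2 and 17.1 in FMC 3, with 0 in FMC 1 and FMC 4. Ighv4-1, the only row of its family, was at 14.4 and 9.24 FPKM in FM, against 3.87, 6.58, 0 and 2.65 in FMC. In FMC 1, the library with the highest total, each of these 6 segments was at 4.03 FPKM or less. They were picked for FMC values below both FM values, so this follows in part from the choice.

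**Figure D4:**
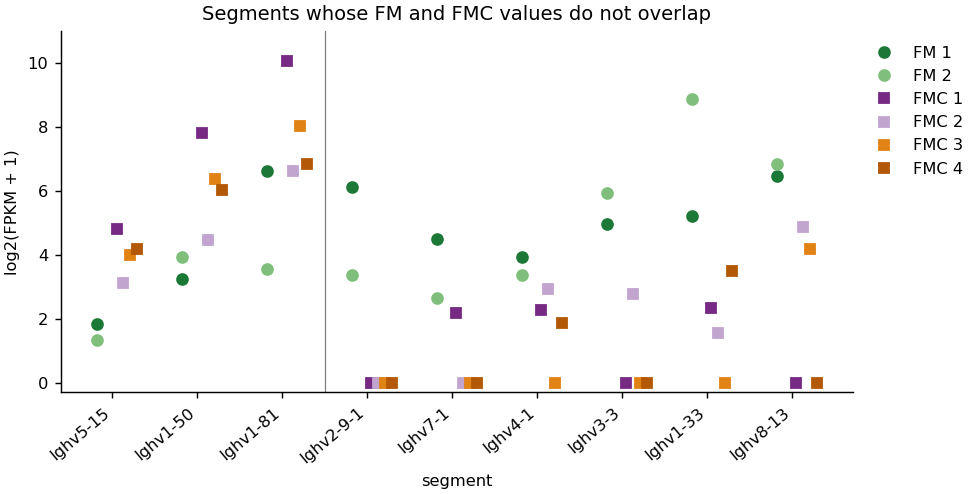
log2(FPKM + 1) (y axis) of the 9 Ighv segments whose FM values (circles) and FMC values (squares) do not overlap, 1 point per library. The 3 left of the line are higher in FMC and the 6 right of it lower; Ighv2-9-1 is at 0 in all FMC libraries, and no segment passed the adjusted test.

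Other antibody genes were read from the same fit, and none passed the threshold. Among heavy constant genes, Ighm (IgM) was at 243 and 193 FPKM in FM, against 492, 325, 249 and 184 in FMC, with overlapping groups. Ighg2b (IgG2b) was at 3.04 and 49.6 FPKM in FM, against 616, 60.6, 89.4 and 403 in FMC. All 4 FMC values were above FM, with a log2 difference of 3.75 ± 1.17 (SE) and an adjusted limma p of 0.676. Ighe (IgE) lay the other way without overlap, at 4.76 and 3.83 FPKM in FM, against 1.76 in FMC 2, 0.508 in FMC 4 and values near 0 in FMC 1 and FMC 3. Its log2 difference was -1.88 ± 0.67 (SE), with an adjusted limma p of 0.765. Of the 6 heavy constant genes tested, 4 were higher and 2 lower in FMC, the second being Ighg3 (IgG3, log2 difference -0.70). The sum of the 6 heavy constant genes with values was 285 and 300 FPKM in FM and 1768, 424, 394 and 597 in FMC, without overlap. In FMC 4, Ighg2b made up 403 FPKM of that sum. Ighg1 was at 17.2 and 46.8 FPKM in FM, against 423, 21.6, 19.1 and 4.58 in FMC. Ighg2c was at 14.8 and 4.78 FPKM in FM, against 233, 14.7, 36.0 and 5.31 in FMC. Both overlapped, as Ighm did, so the separation of the sum leans on Ighg2b. The 20 diversity and 4 joining rows were listed at 0 in every library. A listed 0 can be a failed estimate, so these do not show that such transcripts were absent.

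Kappa light chain transcripts did not overlap between the groups, whereas the Ighv totals did. The 103 kappa variable rows (Igkv) summed to 3540 and 2913 FPKM in FM and to 42529, 8289, 4459 and 17687 in FMC. The kappa constant gene Igkc was at 3363 and 2585 FPKM in FM, against 49907, 10620, 6236 and 16959 in FMC. All FMC values were above both FM values in each case, and for Igkc the adjusted limma p was 0.939 on a log2 difference of 2.38 ± 1.06 (SE). The ratio of the Igkv to the Ighv sum was 0.686 and 0.518 in FM and 1.55, 1.37, 0.953 and 4.37 in FMC, without overlap. Within the pairs of title dates it was 0.686 and 1.37, and 0.518 and 0.953. The difference in mean ratio, 1.46, was 0.690 without FMC 4. This ratio was chosen after its values were seen. The highest Igkv segment took 24.1% and 29.5% of the Igkv sum in FM and 19.4%, 15.5%, 17.1% and 60.1% in FMC. In 3 of the 4 FMC libraries this share was thus below both FM libraries, the opposite order to that of the highest Ighv segment, and FMC 4, led by Igkv4-53, was above them. The effective number of Igkv segments was 10.4 and 6.98 in FM and 13.7, 10.6, 14.7 and 2.46 in FMC.

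**Figure D5:**
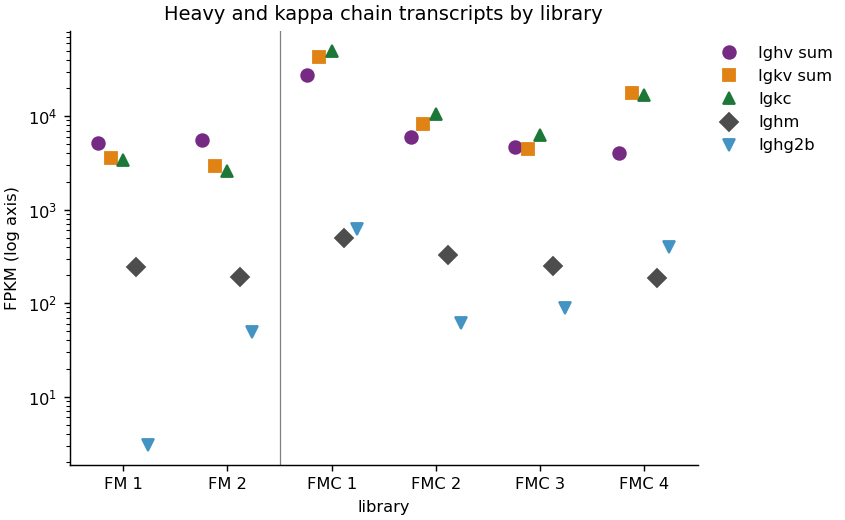
FPKM on a log axis (y axis) of the Ighv sum, the Igkv sum, Igkc, Ighm and Ighg2b in each library (x axis), with FM left of the line. The Igkv sum and Igkc lie below the Ighv sum in both FM libraries and well above it in FMC 1 and FMC 4, where they reach 42529 and 17687 FPKM for Igkv.

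All 10 microglial markers, including Tmem119 and P2ry12, were at 1 FPKM or more in every library, and none passed the test. Of these, 9 were lower and 1 higher in FMC, with a median log2 difference of -0.17. Fcrls was at 21.2 and 50.6 FPKM in FM, against 21.1, 11.2, 5.23 and 17.6 in FMC, without overlap (log2 difference -1.35, adjusted limma p of 0.993). Markers of other cells were also present, and some exceeded the microglial marker Cx3cr1 of the same library. The T cell marker Trac was at 137 FPKM in FMC 1, where Cx3cr1 was at 70.7, and the B cell marker Cd79b at 98.4 FPKM in FM 2, where Cx3cr1 was at 84.4. The 7 B cell markers summed to 38.6 and 118 FPKM in FM and to 130, 23.3, 44.6 and 54.3 in FMC, and 3 to 6 of the 7 reached 1 FPKM. Cd79a, a signalling subunit of the B cell receptor, was at 0.742 and 1.60 FPKM in FM, against 17.9, 4.88, 6.60 and 9.54 in FMC, with no overlap and an adjusted limma p of 0.747. Blk was at 0 in FMC 2.

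The 5 plasma cell markers with values summed to 18.2 and 31.8 FPKM in FM and to 76.7, 45.6, 11.3 and 26.3 in FMC, and 2 to 5 of them reached 1 FPKM. Igj, the chain that joins IgM and IgA subunits, was at 0.878 and 1.25 FPKM in FM, against 30.7, 12.3, 3.13 and 9.62 in FMC, without overlap (adjusted limma p of 0.764). Of the 4 tested plasma cell markers 2 were higher and 2 lower in FMC. Prdm1, a transcription factor of plasma cells, was at 14.7 and 11.8 FPKM in FM, against 7.53, 8.10, 7.64 and 13.5 in FMC (log2 difference -0.51). Tnfrsf17, a survival receptor of plasma cells, had a log2 difference of -0.96. Sdc1 was under 1 FPKM in all libraries but FMC 1, and Tnfrsf17 was listed at 0 in FMC 2. The 9 T cell markers summed to 21.4 and 36.8 FPKM in FM and to 269, 84.9, 62.0 and 30.7 in FMC. FMC 1, with the highest Ighv total, was also highest for all 3 of these marker sums. It was not highest for the other plasma cell list, which has Xbp1 and Irf4 in place of Igj and summed to 83.6 and 152 FPKM in FM and to 88.2, 87.8, 51.1 and 138 in FMC. The part of B cells, plasma cells or T cells in the Ighv values was not tested.

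Of the other B lineage genes, Rag1, which cuts DNA in rearrangement, was at 0.146 to 4.53 FPKM and Vpreb1, part of the surrogate light chain, at 0 to 3.24. None of the 11 tested genes in the B lineage list and none of the 5 in the plasma cell gene list passed, with 6 and 2 higher and 5 and 3 lower in FMC. Adam6a and Adam6b, which lie inside the locus and are not antibody genes, were at 0.0595 to 1.83 and 0 to 4.32 FPKM, far below the leading segments.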

How the data were processed

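RNA was sequenced from sorted optic nerve microglia in 6 libraries (2 FM, 4 FMC). Per the labels' protocols, cells were enriched on Percoll and flow sorted; the sort markers are not given in the sources used here. RNA was amplified with the Ovation RNA-Seq method and sequenced as paired ends. Tools named in the submitters' processing notes are Cufflinks 2.0.2, TopHat2 2.0.4, Bowtie2 2.0.0 and CASAVA 1.8.2, and the build is mm9. The deposited table holds FPKM by the authors per gene. Strand use and the handling of reads that match several segments are not given in the sources used here. No counts were used, so depth is unknown and no counting interval is given; a 0 can be a failed estimate.

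Of 37447 genes, 426 lacked a value and were left out. Tests used log2(FPKM + 1) over 18208 genes that reached 1 FPKM in 2 or more libraries (limma 3.58.1, R 4.3.3, intensity trend, no covariate, two-sided, Benjamini-Hochberg, threshold 0.05). This scale understates changes of low genes. Of 113 Ighv rows, 95 were tested and 18 missed this filter. Of these, 13 reached 1 FPKM in no library and 5 in only 1, such as Ighv1-34 (29.7 FPKM in FMC 1). Scores over the members have no p. Scripts were tested on simulated data.

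The table's rows are 91 to 680 bases long, and FPKM divides by length; totals of FPKM times length were an alternative. All 113 symbols matched GENCODE M21 (21 with the same identifier), which is of another build and served for sequence and gene type only; 105 starts lay within 20 bases of a common shift. The annotation has 70 further Ighv genes not used here.

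The members and lists were chosen with earlier results of these data known. Segments were named if past the threshold, among the 3 highest of a library, among up to 6 per direction with the smallest p and no overlap, or at 1 FPKM or more in 5 or 6 libraries. The last clause took 46, given mostly as counts, a reduction made after values were seen. Marker lists were of microglia, B, plasma and T cells; Ighd, Igha, Iglc1, Mzb1 and Fcmr had no usable row. Alternatives were another pseudocount, filters, scalings, no trend, sex as covariate, blocks by replicate number or title date, and omission of each library. The numbers were not taken as pairs. Deviations from the group means had r of 0.031 and -0.057 between same-numbered libraries. This can hardly decide on pairing, since the deviations of the FM libraries mirror each other. Libraries paired by title date were not checked in this way.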

Additional observations from a re-analysis of the deposited data

Results flagged for a closer look

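Of 35 values examined within the 4 FMC libraries, 13 had 1 library far from the other three (a gap to the nearest value above the critical share of the range by Dixon's test at the 95% level), 7 of them in FMC 1. Chance flags about 1 in 20 groups, but that rate does not apply to this count, since many segments were examined because they were among the 3 highest of 1 library, as Ighv1-80, Ighv5-6 and Ighv1-54 were in FMC 1 and Ighv1-85, Ighv5-4 and Ighv5-9 in FMC 4. In FMC 1 these were the Ighv total (27487 FPKM), Ighv1-80 (6061), Ighv5-6 (1608), Ighv1-54 (1501), Ighv1-9 (1110), Ighv1-81 (1080) and Ighv7-1 (3.57, with the other three at 0). In FMC 4 they were Ighv1-85 (813 FPKM), Ighv5-4 (783), Ighv5-9 (767), the family 1 share (43.4%) and the family 5 share (41.9%). In FMC 2 it was Ighv3-3 (5.85 FPKM, with the other three at 0). Where the other libraries were all at 0, as for Ighv3-3 and Ighv7-1, any value above 0 is flagged. The check used untransformed values, and its rate of 1 in 20 holds for normally distributed ones. The 2 FM libraries are too few for this check.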

How the results depend on the processing

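In none of 15 alternative fits did an Ighv segment pass the limma threshold. The smallest adjusted p over them was 0.0868, and 6 to 29 segments had an unadjusted p under 0.05, so that count depends on the fit. With the replicate block, 0 passed. Across the fits the median Ighv difference ran from -0.51 to 1.08 and that of all genes from -0.25 to 0.04 (log2). The 9 segments without overlap kept their direction wherever they were tested. They were picked for having no overlap, so omission of a library or another pseudocount could not turn it. Their order of size did change: with a pseudocount of 0.1 Ighv2-9-1 was at -7.99 and Ighv1-33 at -6.25. Ighv2-9-1 fell below the filter when either FM library was left out. In the fits without an FM library, the lone one is assumed to vary like FMC.

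The small differences of 4 leading segments turned. Ighv1-26 was 0.14 with median ratio scaling, 2.21 with the replicate block and 1.36 with the date block, and -1.51 to 1.47 without single libraries. Ighv1-82 was -0.050 with the replicate block and -0.95 with the date block, and -1.91 to 2.10 without single libraries. Ighv1-76 was -0.997 with a pseudocount of 0.1, and -2.20 to 3.07 without single libraries. Ighv1-80 ran from -0.64 to 2.72 without single libraries. The cause was not tested.

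For FMC minus FM, the difference in detected segments was -3.75 as reported and 3 at 10 FPKM or more. It was 7 within replicate numbers, which leaves out FMC 3 and FMC 4. Without single libraries it was -8 to 1.67, positive only without FMC 4 among these. The total was -474 FPKM without FMC 1 and up to 7341 without another library. The share of the highest segment stayed positive (5.67 to 11.2 percentage points), the effective number negative (-8.49 to -4.82) and the Igkv to Ighv ratio positive (0.690 without FMC 4, up to 1.83). For the share and the ratio, whose groups do not overlap, omission of a library could not turn the sign. Without the highest segment of each kind the ratio difference was 1.10. The ratio's alternatives and the share of the 3 highest were chosen after seeing the data. No rows overlapped, so leaving out overlaps changed nothing. Depth is unknown and limits the lowest values.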
